A study of Mus musculus with 2 samples.

Results

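The T cell receptor complex and its proximal signalling genes were followed in optic nerve cells of Nf1-OPG mice, a model of optic pathway glioma in neurofibromatosis. The 32 members were taken by gene symbol from the 32285 genes of the single-cell count tables, and all 32 were found. They were the CD3 chains (Cd3d, Cd3e, Cd3g and Cd247), the co-receptors (Cd4, Cd8a and Cd8b1), the kinases Lck, Fyn and Zap70, the adaptors (Lat, Lcp2, Grap2, Skap1, Trat1, Sh2d1a, Sh2d2a and Themis), the surface proteins Cd2, Cd5, Cd6 and Thy1, the downstream enzymes and factors (Plcg1, Prkcq, Rasgrp1, Vav1, Nfatc1, Nfatc2 and Nfatc3) and the inhibitory regulators Ubash3a, Sla2 and Ptpn22. Both groups had the genotype Nf1flox/neo; GFAP-Cre, in which 1 Nf1 allele carries a neomycin cassette in exon 31 in every cell and the other is lost where the GFAP promoter drives Cre, in neuroglial progenitors. The mice were 12 weeks old. In the first group they received anti-PDCD1, an antibody against the receptor PD-1 (written anti-PD-1 here), and in the second anti-TIGIT, an antibody against the receptor TIGIT. The antibodies' dose and schedule were not given in the sources used here.

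Each group was 1 library made from the pooled optic nerves of 10 mice, sorted for live cells by 7-AAD, a dye that enters dead cells. The labels' protocol also mentions meningeal dura and does not say whether any entered these libraries. No untreated library was analysed here. With 1 library per group there was no replicate and no test, so every interval below is at 95% and covers counting error only. A difference between the libraries cannot be told apart from a difference between the pools of mice, or from the Cell Ranger version, given as 8.0.0 and 8.0.1.

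A T cell recognises a peptide on an MHC molecule through its receptor α and β chains, which have almost no cytoplasmic part and signal through the CD3 γ, δ, ε and ζ chains. Lck, brought in by CD4 or CD8, phosphorylates the CD3 chains, ZAP-70 binds to them and phosphorylates the scaffolds LAT and SLP-76 (the product of Lcp2), and these assemble the enzymes that open the calcium, Ras and NF-κB arms. PD-1, when bound by its ligand, recruits phosphatases that act on this same chain of events.

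The libraries held 13997 and 7915 barcodes with medians of 4505 and 4082 UMIs (anti-PD-1 first, here and below), and 13275 and 7495 cells were retained. Oligodendrocytes, the myelinating cells that mark nerve tissue, numbered 2687 and 1967. The number of cell barcodes found in both libraries was 163. T cells were gated on at least 2 UMIs of the receptor constant genes Trac, Trbc1 and Trbc2, none of which is a member, which gave 2376 and 917 αβ T cells. Of these, 1154 and 395 were CD8 T cells, 345 and 199 conventional CD4 T cells and 216 and 48 regulatory T cells, the last gated on Foxp3. Not compared here were 413 and 241 αβ T cells without CD4 or CD8 UMIs, 112 and 11 with both and 136 and 23 others. Cd4 was seen in 48.6% and 31.25% of regulatory T cells, so a gate on Cd4 UMIs can miss CD4 T cells. Cd4, Cd8a and Cd8b1 served in the gates, so their levels there are a description. The γδ T cells numbered 8 and 1 and were not compared. Levels are in CPM, a gene's UMIs for every 1000000 that its class holds. The kit tags 1 end of each RNA molecule, so no level was divided by gene length. A member was called higher or lower when CPM + 5 differed by more than 1.5-fold (0.58 on the log2 scale) and its class held at least 10 UMIs over both libraries.

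All 32 members were detected in αβ T cells of both libraries, from Trat1 at 23.6 and 34.7 CPM to Cd3e at 1697 and 1159 CPM. In the plot of member levels the points of the 2 libraries lie close together for most members in each T cell type.

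**Figure D1:**
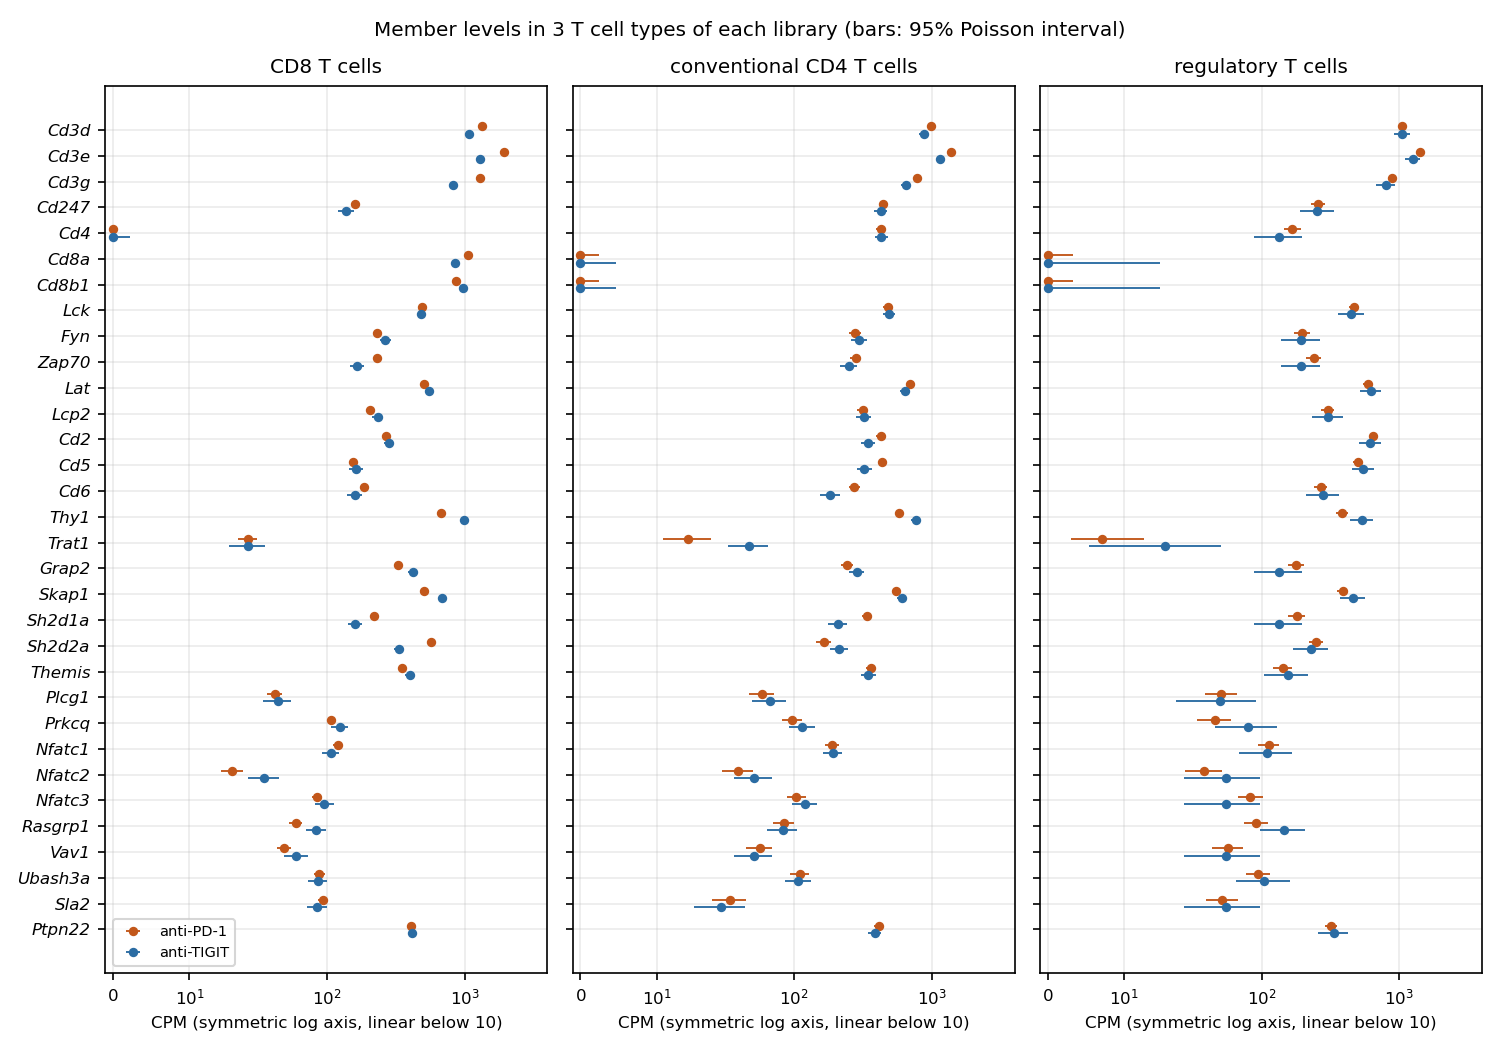
CPM of the 32 members (horizontal axis, symmetric log scale) in CD8, conventional CD4 and regulatory T cells of the anti-PD-1 (orange) and anti-TIGIT (blue) libraries, with 95% Poisson intervals as bars. Cd3e is the member with the highest CPM in each panel, and the gates set Cd4 to 0 in CD8 T cells and Cd8a and Cd8b1 to 0 in the other panels.

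In CD8 T cells most members differed by less than 1.5-fold between the treatments. The exceptions were Cd3g and Sh2d2a, both higher with anti-PD-1, and Nfatc2, which was lower. These were 2 of the 29 members that did not gate the class, where 6.44% of 12312 genes with enough UMIs were higher, and 1 of 29, where 4.04% of those genes were lower. The members' shares were near those of all genes. The median log2 difference in CPM + 5 was -0.06 over the members and 0.01 over all genes. Counting intervals lay above 0 for 8 members, below 0 for 8 and across 0 for 13.

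By their log2 ratios, the CD3 chains were higher in anti-PD-1 CD8 T cells in the order of γ, ε, δ and ζ. The intervals of γ and ε overlapped, as did those of δ and ζ, so the order within each pair was not resolved. Cd3g, the γ chain, was at 1299 CPM with anti-PD-1 and 825 CPM with anti-TIGIT, a log2 ratio of 0.66 (0.57 to 0.74). Cd3e, the ε chain, was at 1939 and 1306 CPM, a log2 ratio of 0.57 (0.50 to 0.64) that stopped just short of 1.5-fold. The δ chain Cd3d was at 1333 and 1074 CPM, a log2 ratio of 0.31 (0.24 to 0.39). The ζ chain Cd247 was at 160 and 138 CPM, and its ratio of 0.21 had an interval that began at 0.00. The intervals of Cd3g and Cd3e lay above that of Cd3d, so the chains of 1 complex did not differ by the same amount. Cell by cell, after each cell was thinned to 1000 UMIs, 3 of the 4 CD3 chains were seen in 45.9% of 1148 anti-PD-1 CD8 T cells (43.0% to 48.8%) and in 27.7% of 394 anti-TIGIT CD8 T cells (23.3% to 32.4%). No chain was seen in 23 and 25 of these cells.

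Cd3g, Cd3d and Cd3e lie within 40056 bases of chromosome 9 (44969572 to 45009627 in mm10), and the starts of Cd3g and Cd3d are 1355 bases apart on opposite strands. Cd247 lies apart from the other CD3 chains, on chromosome 1, from 165788681 to 165877277. The promoters of the 4 chains, 250 bases before to 50 after the start, are shown because the linked genes were all higher in anti-PD-1 CD8 T cells, while Cd247 followed another pattern across T cell types, given further on. The sequences are from RefSeq on GRCm38.p6, the assembly of mm10, written 5′ to 3′ on the strand of the gene, and capitals mark the ETS core GGAA or its reverse complement TTCC.
Cd3g, chr9:44980382-44980681, minus strand: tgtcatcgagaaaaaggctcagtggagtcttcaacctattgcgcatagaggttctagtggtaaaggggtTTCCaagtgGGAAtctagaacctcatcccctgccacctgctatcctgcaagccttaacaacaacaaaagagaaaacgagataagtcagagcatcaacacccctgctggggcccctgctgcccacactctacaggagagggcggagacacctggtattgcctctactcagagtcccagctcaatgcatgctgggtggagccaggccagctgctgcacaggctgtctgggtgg
Cd3d, chr9:44981536-44981835, plus strand: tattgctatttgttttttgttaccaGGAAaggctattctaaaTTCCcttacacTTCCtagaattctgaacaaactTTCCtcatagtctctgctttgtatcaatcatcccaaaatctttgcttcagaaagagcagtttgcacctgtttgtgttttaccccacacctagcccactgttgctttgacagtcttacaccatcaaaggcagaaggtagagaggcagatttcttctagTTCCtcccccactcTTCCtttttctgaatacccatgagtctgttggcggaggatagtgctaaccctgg
Cd3e, chr9:45009562-45009861, minus strand: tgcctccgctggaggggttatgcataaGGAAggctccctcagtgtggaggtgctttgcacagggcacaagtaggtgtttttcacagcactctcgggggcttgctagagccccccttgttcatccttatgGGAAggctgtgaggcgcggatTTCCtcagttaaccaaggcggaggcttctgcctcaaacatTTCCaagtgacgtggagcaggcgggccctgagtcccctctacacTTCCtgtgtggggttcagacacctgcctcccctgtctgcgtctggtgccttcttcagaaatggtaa
Cd247, chr1:165788431-165788730, plus strand: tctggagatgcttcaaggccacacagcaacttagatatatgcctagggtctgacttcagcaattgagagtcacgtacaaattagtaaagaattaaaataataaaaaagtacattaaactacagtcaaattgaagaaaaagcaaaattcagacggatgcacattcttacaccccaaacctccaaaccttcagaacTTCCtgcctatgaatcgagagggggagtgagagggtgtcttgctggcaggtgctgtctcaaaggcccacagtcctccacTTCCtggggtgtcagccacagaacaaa

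The ETS core was counted on both strands 2 times in the Cd3g promoter, 6 times in Cd3d, 5 times in Cd3e and 2 times in Cd247. None of the 4 windows held TATAAA, the TATA box, or TGTGGT, a RUNX site, on either strand. RefSeq promoters were matched for 23 of the 32 members, 30 promoters in all. GGAA was found in 90% of these and in 96.0% of 32851 promoters of the same length. The E-box CANNTG was found in 86.7% of the members' promoters against 72.3%, CTTTGA, a TCF/LEF site, in 23.3% against 16.0%, TGTGGT in 20% against 16.8%, and TATAAA in 10% against 13.6%. These are matches of letters in a window and no record of binding.

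Among the co-receptors, Cd8a was at 1067 and 856 CPM and Cd8b1 at 869 and 982 CPM in CD8 T cells, so the α chain was the higher in the anti-PD-1 library and the β chain the lower. Each gates the class. With each measured in cells gated by the other alone, the log2 ratios were 0.32 (0.24 to 0.41) for Cd8a and -0.17 (-0.26 to -0.09) for Cd8b1.

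The kinases and scaffolds of CD8 T cells stayed within 1.5-fold. Lck, the kinase carried by the co-receptors, was at 487 and 484 CPM, a log2 ratio of 0.01 (-0.10 to 0.12). Zap70 was at 230 and 165 CPM, a log2 ratio of 0.47 (0.29 to 0.67), and was the kinase that differed most. Fyn, the other Src-family kinase of the receptor, was at 230 and 265 CPM, a log2 ratio of -0.21 (-0.36 to -0.05). The scaffold Lat was at 511 and 550.5 CPM, a log2 ratio of -0.11 (-0.21 to 0.00). Its partner Lcp2 was at 204 and 233 CPM, a log2 ratio of -0.19 (-0.36 to -0.03). Grap2, which couples Lat to Lcp2, and Skap1, an adaptor that links the receptor to integrins, both had intervals below 0, with log2 ratios of -0.36 (-0.49 to -0.23) and -0.43 (-0.53 to -0.34).

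Sh2d2a, which encodes the Lck-binding adaptor TSAd, was the member with the largest log2 ratio in CD8 T cells. It was at 567 CPM with anti-PD-1 and 335 CPM with anti-TIGIT, a log2 ratio of 0.76 (0.63 to 0.89). It was seen in 38.2% of thinned anti-PD-1 CD8 T cells (35.4% to 41.1%) and 22.3% of thinned anti-TIGIT ones (18.3% to 26.8%). In oligodendrocytes, which should lack it, the thinned shares were 0.719% and 0.0552%. The median depths of CD8 T cells before thinning were 4220 and 3499 UMIs, and the shares without thinning were 75.3% and 57.2%. Sh2d1a, the adaptor SAP of SLAM-family receptors, was at 221 and 160 CPM, a log2 ratio of 0.46 (0.27 to 0.66).

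Thy1, a GPI-anchored surface protein of T cells, was lower in the anti-PD-1 library in CD8 T cells, at 679 against 998 CPM, a log2 ratio of -0.55 (-0.64 to -0.47). Nfatc2, a transcription factor freed by calcineurin, was at 20.5 and 34.8 CPM, from 118 and 59 UMIs, with a log2 ratio of -0.76 (-1.23 to -0.29). Nfatc1 was at 120 and 106 CPM, with a ratio of 0.17 whose interval held 0, so the factors of this family did not go together. The 26 members within 1.5-fold ran from Thy1 at -0.55 to Cd3e at 0.57. The call of Nfatc2 was kept under 11 of 18 alternative settings, whereas Cd3g and Sh2d2a each kept theirs under 15 of 18.

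Marker lists beyond the members also differed between the libraries, in both directions. In CD8 T cells the 5 oligodendrocyte markers summed to 2547 and 1434 CPM, with 5 of 5 higher in anti-PD-1 and none at 0. The 6 myeloid markers summed to 182 and 85.6 CPM, with 5 of 6 higher, and the 4 plasma cell markers to 305 and 102 CPM, with Sdc1 and Derl3 at 0 in the anti-TIGIT library. The 5 NK markers summed to 118 and 358 CPM, and the 3 cycling markers to 182 and 253 CPM. Their part in the differences was not tested.

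The mix of CD8 T cells also differed. Cells with UMIs of both Pdcd1 and Tox, genes of exhausted T cells, were 68.3% of anti-PD-1 CD8 T cells (65.5% to 71.0%) and 23.8% of anti-TIGIT ones (19.7% to 28.3%). Cells with Gzmk and no Pdcd1 were 12.4% (10.5% to 14.4%) and 38.0% (33.2% to 43.0%). Both shares depend on depth, which was not thinned here. The remaining CD8 T cells were 19.3% (17.1% to 21.7%) and 38.2% (33.4% to 43.2%). Cd3g passed 1.5-fold in none of these 3 groups, and Sh2d2a passed it in the remaining cells alone. Cd3g had a log2 ratio of 0.52 (0.40 to 0.64) between the libraries in the Pdcd1 and Tox subset, at 1427 and 997 CPM, and of 0.08 (-0.12 to 0.28) in the Gzmk subset, at 762 and 721 CPM. In the remaining cells it had 0.58 (0.41 to 0.75), at 1083 and 725 CPM. Sh2d2a had ratios of 0.42 (0.25 to 0.60) and 0.14 (-0.17 to 0.46) in the 2 subsets and 0.67 (0.35 to 0.99) in the remaining cells, at 338 and 212 CPM. Nfatc2 had 0.24 (-0.71 to 1.36) in the Pdcd1 and Tox subset, from 80 and 10 UMIs, the opposite side of 0 from all CD8 T cells, and -0.81 and -0.87 in the other 2 groups, with all 3 intervals across 0. No member was called higher in the Pdcd1 and Tox or the Gzmk subset, where 11.4% of 11606 genes and 9.33% of 8270 genes were. Called lower was Rasgrp1 in the Pdcd1 and Tox subset, with 7.87% of genes, and Fyn, Trat1 and Nfatc2 in the Gzmk subset, with 13% of genes. In the remaining cells Sh2d1a and Sh2d2a were called higher, with 9.37% of 8862 genes, and Trat1 and Nfatc2 lower, with 12.9%. Thy1 had an interval below 0 in all 3 groups, at -0.35 (-0.50 to -0.21), -0.35 (-0.52 to -0.19) and -0.19 (-0.35 to -0.04).

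**Figure D2:**
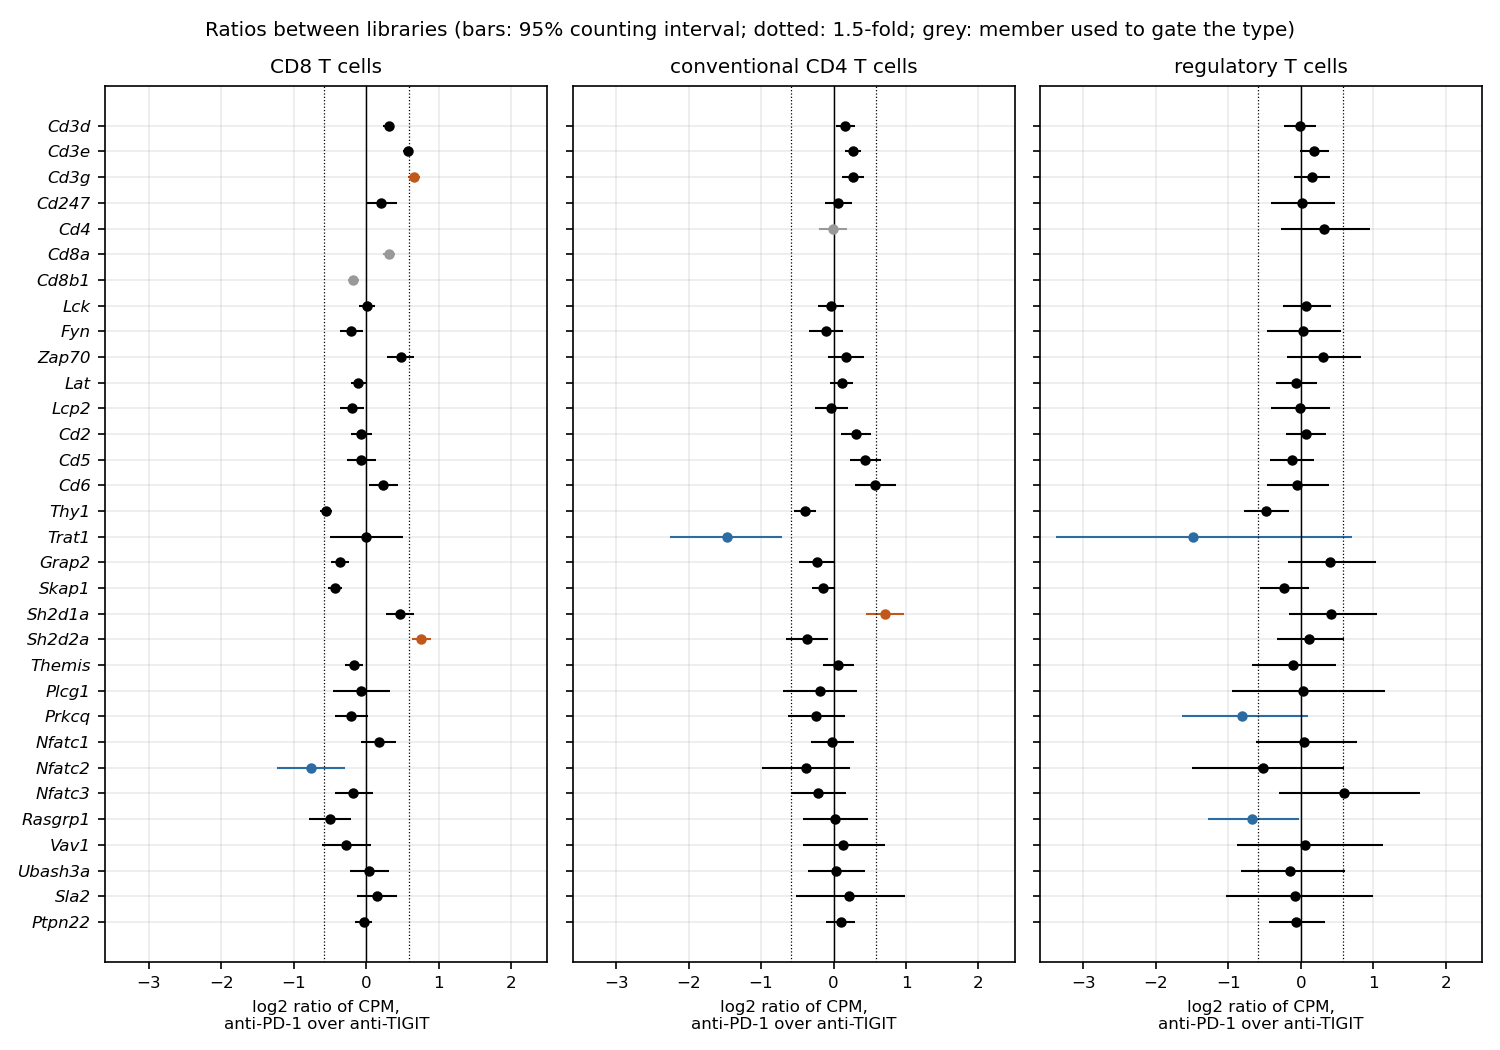
Log2 ratio of CPM, anti-PD-1 over anti-TIGIT, of each member in 3 T cell types, with 95% counting intervals as bars and dotted lines at 1.5-fold. Orange marks members called higher, blue those called lower and grey those that gate the type; in CD8 T cells Cd3g and Sh2d2a are orange and Nfatc2 is blue.

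In conventional CD4 T cells the receptor chains and kinases stayed within 1.5-fold between the treatments, and the called members were adaptors. Sh2d1a was higher with anti-PD-1, at 339 against 207 CPM, a log2 ratio of 0.71 (0.45 to 0.97), from 520 and 163 UMIs. It lies on chromosome X, and the libraries differed in their mix of male and female cells: 69 and 11 conventional CD4 T cells held Xist and no Y-linked transcript, and 103 and 84 the reverse. In the latter its log2 ratio was 0.43 (0.06 to 0.82). In the Xist-positive conventional CD4 T cells Sh2d1a kept its call as higher. Among CD8 T cells these numbers were 354 and 43, and 260 and 149, and Sh2d1a had 0.04 (-0.25 to 0.33) in the latter. The part of the sex mix in these differences was not tested. Trat1, a transmembrane adaptor that associates with the receptor, was lower, at 16.9 against 47.1 CPM, a log2 ratio of -1.48 (-2.26 to -0.71), from 26 and 37 UMIs. Sh2d1a and Trat1 were thus 1 of 29 higher, against 10.3% of 10399 genes, and 1 of 29 lower, against 6.46%. The members' shares lay below those of all genes, and the median was 0.03 against 0.06 over all genes. Here and elsewhere, the shares of all genes take in every gene with at least 10 UMIs and were not matched to the members' levels.

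The CD3 chains of conventional CD4 T cells were slightly higher in the anti-PD-1 library. Cd3e was at 1383 and 1149 CPM, a log2 ratio of 0.27 (0.15 to 0.38). Cd3g was at 785 and 652 CPM, also 0.27 (0.12 to 0.42), and Cd3d at 979 and 875 CPM, 0.16 (0.03 to 0.30). Cd247 was at 444 and 424 CPM, with an interval across 0. Lck at 477 and 488 CPM, Fyn at 275 and 295 CPM, Zap70 at 280 and 250 CPM, Lat at 688 and 636 CPM and Lcp2 at 313 and 320 CPM all had intervals across 0. Cd4, the gating co-receptor, was at 427 and 428 CPM.

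The surface proteins of conventional CD4 T cells did not go one way. Cd6, a scavenger-type receptor that adheres to antigen-presenting cells, had a log2 ratio of 0.58 (0.30 to 0.86), at 274 and 183 CPM, just under the threshold on CPM + 5. Its relative Cd5, which dampens receptor signals, had 0.43 (0.22 to 0.65), at 437 and 323 CPM. Thy1 had -0.39 (-0.54 to -0.24), at 582 and 763 CPM. Sh2d2a was at 163 and 211 CPM, a log2 ratio of -0.37 (-0.66 to -0.08), the opposite side of 0 from CD8 T cells. Sh2d1a kept its call under 11 of 15 alternative settings and Trat1 under 14 of 15. The call of Sh2d1a was lost with at least 4 receptor UMIs, with doubled limits on other lineages, in cells with Y-linked transcripts and past 2-fold. Here the oligodendrocyte markers summed to 2723 and 1847 CPM, and the plasma cell markers to 399 and 569 CPM, and their part was not tested.

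In regulatory T cells, with 48 in the anti-TIGIT library, no member was called higher, where 18.6% of 9147 genes were. Called lower were 3 of the 30 members with enough UMIs, Trat1, Prkcq and Rasgrp1, where 13.4% of genes were. Rasgrp1, which loads Ras, was at 90.9 and 144 CPM, a log2 ratio of -0.67 (-1.28 to -0.02). Prkcq, the protein kinase C of the NF-κB arm, was at 45.5 and 79.7 CPM, a log2 ratio of -0.81 with an interval across 0 (-1.64 to 0.10). Trat1 rested on 8 and 4 UMIs. In the cells with Y-linked transcripts alone Rasgrp1 had a log2 ratio of 0.28, so its direction turned.

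The receptor complex of regulatory T cells was level within counting error. Cd3d was at 1040 and 1051 CPM, Cd3e at 1422 and 1250 CPM, Cd3g at 887 and 797 CPM and Cd247 at 257 and 254 CPM, with all 4 intervals across 0. Cd4, which did not gate this class, was at 168 and 135 CPM. Lck at 472 and 448 CPM, Fyn at 198 and 194 CPM, Zap70 at 240 and 194 CPM, Lat at 595 and 623 CPM and Lcp2 at 301 and 304 CPM also had intervals across 0. Thy1 was at 385 and 538 CPM, a log2 ratio of -0.48 (-0.79 to -0.16). Its interval thus lay below 0 in all 3 T cell types, and in none did it pass 1.5-fold. The 5 oligodendrocyte markers summed to 2323 and 1429.7 CPM here, and their part was not tested. With 28 of 30 intervals across 0, most differences of moderate size were not detectable at this depth.

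Between T cell types of the same library, several members differed by more than 1.5-fold in both libraries. CD8 and conventional CD4 T cells shared the level of Lck, and differed in Cd247, Cd5, Sh2d2a and Sla2. Called in both libraries were 2 members higher in CD8 T cells, Sh2d2a and Sla2, and 3 lower, Cd247, Cd5 and Nfatc1. Of 10262 genes with enough UMIs in both libraries, 2.33% were higher in both and 4.31% lower in both.

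With anti-PD-1, Cd247 was at 160 CPM in CD8 and 444 CPM in conventional CD4 T cells, a log2 ratio of -1.47 (-1.62 to -1.33). With anti-TIGIT it was at 138 and 424 CPM, a log2 ratio of -1.62 (-1.86 to -1.37). The other CD3 chains went the opposite way. The log2 ratio of CD8 over conventional CD4 for Cd3g was 0.73 (0.64 to 0.81) with anti-PD-1 and 0.34 (0.19 to 0.49) with anti-TIGIT, for Cd3e 0.49 and 0.18, and for Cd3d 0.44 and 0.30, all with intervals above 0. In single cells thinned to 1000 UMIs, the ζ chain was seen in 14.2% and 13.5% of the CD8 class and 33.6% and 32.3% of the conventional CD4 class. In oligodendrocytes the thinned shares of Cd247 were 0.719% and 0.165%.

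Cd5, with anti-PD-1, was at 156 CPM in CD8 and 437 CPM in conventional CD4 T cells, a log2 ratio of -1.49 (-1.63 to -1.34). In the anti-TIGIT library it was at 164 and 323 CPM, a log2 ratio of -0.98 (-1.23 to -0.73). Nfatc1 was at 120 and 188 CPM and at 106 and 190 CPM in the same order, log2 ratios of -0.65 (-0.85 to -0.45) and -0.84 (-1.16 to -0.51). On the higher side, Sla2, which encodes an adaptor that lowers receptor signals, was at 93.3 and 33.9 CPM and at 84.5 and 29.3 CPM. Its log2 ratios were 1.46 (1.05 to 1.90) and 1.53 (0.89 to 2.23). Sh2d2a had 1.79 (1.61 to 1.99) with anti-PD-1 and 0.67 (0.41 to 0.93) with anti-TIGIT, with intervals that did not meet. The negative regulator Ptpn22 was level, at 406 and 410 CPM and at 417 and 383 CPM.

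**Figure D3:**
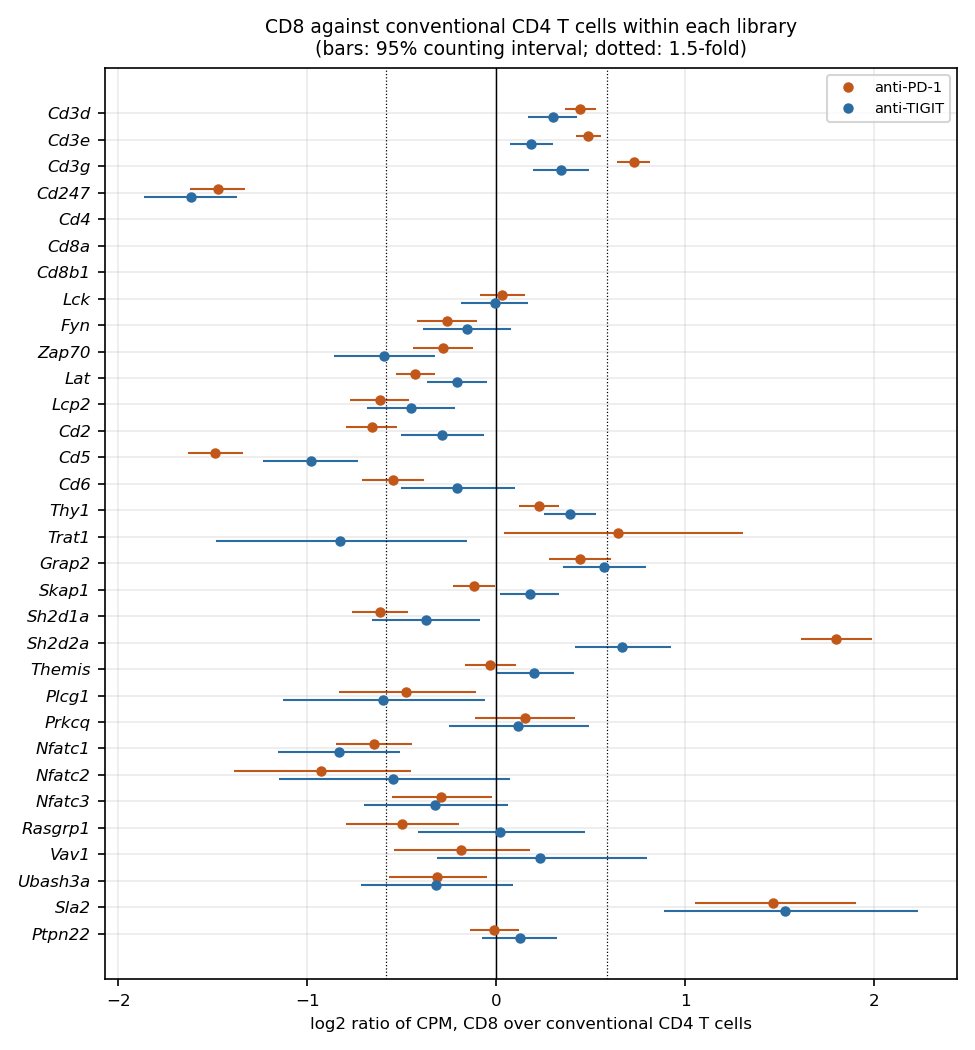
Log2 ratio of CPM, CD8 over conventional CD4 T cells, within the anti-PD-1 (orange) and anti-TIGIT (blue) libraries, with 95% counting intervals as bars and dotted lines at 1.5-fold; the gating co-receptors are left out. Cd247 and Cd5 lie far to the left and Sla2 far to the right in both libraries, and Sh2d2a is split, at 1.79 and 0.67.

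Regulatory and conventional CD4 T cells had Cd3d, Cd3e and Cd3g within 1.5-fold of each other and differed in the ζ chain Cd247, Themis, Sh2d1a and Cd2. In both libraries Cd2 was higher in regulatory T cells, and Cd247, Trat1, Sh2d1a, Themis and Nfatc1 were lower, which made 1 and 5 of the 29 members that gate neither type. Of 8274 genes, 2.86% were higher in both libraries and 2.77% lower in both. Themis, an adaptor needed for thymic selection, was at 143 CPM in regulatory and 361 CPM in conventional T cells with anti-PD-1, a log2 ratio of -1.34 (-1.60 to -1.09). In the anti-TIGIT library it was at 154 and 346 CPM, a log2 ratio of -1.16 (-1.75 to -0.63). The log2 ratios of Cd247 were -0.79 (-0.99 to -0.59) with anti-PD-1 and -0.74 (-1.19 to -0.31) with anti-TIGIT, so regulatory T cells lay between conventional CD4 and CD8 T cells in the ζ chain. Sh2d1a had -0.91 (-1.15 to -0.67) and -0.63 (-1.27 to -0.03). Cd2, an adhesion receptor that binds CD48 in the mouse, was at 647 and 427 CPM and at 618 and 345 CPM, log2 ratios of 0.60 (0.44 to 0.75) and 0.84 (0.52 to 1.15). Its call was lost under gating by Cd3d, Cd3e and Cd3g, under scaling by the median ratio and with a pseudocount of 20 CPM.

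Among CD8 T cells, 7 members differed by more than 1.5-fold between the 2 subsets in both libraries. In cells with Pdcd1 and Tox, Zap70, Sh2d2a and Nfatc1 were higher than in cells with Gzmk and no Pdcd1, and Thy1, Grap2, Skap1 and Nfatc2 were lower. These were 3 and 4 of 29 members, where 8.43% of 8493 genes were higher in both libraries and 2.67% lower in both. None of these genes was used to define the subsets.

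With anti-PD-1, Zap70 was at 262 CPM in the Pdcd1 and Tox subset and 108 CPM in the Gzmk subset, a log2 ratio of 1.28 (0.94 to 1.65). In the anti-TIGIT library it was at 244 and 115 CPM, a log2 ratio of 1.08 (0.64 to 1.54). For Nfatc1 the log2 ratios were 0.97 (0.53 to 1.45) with anti-PD-1 and 1.29 (0.69 to 1.91) with anti-TIGIT, and for Sh2d2a 1.08 (0.87 to 1.29) and 0.80 (0.51 to 1.09). Between the libraries within a subset Zap70 was level, with ratios of 0.10 (-0.14 to 0.36) and -0.10 (-0.61 to 0.42). Its interval held 0 within either subset and lay above 0 over all CD8 T cells. In the remaining CD8 T cells Zap70 was not called, but neither was it over all CD8 T cells. The lack of a call there thus does not show that it was level. The part of the subset mix in its difference was not tested.

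On the lower side, Grap2 was at 289 and 534 CPM in the anti-PD-1 library and at 262 and 549.5 CPM in the anti-TIGIT library, log2 ratios of -0.89 (-1.06 to -0.71) and -1.07 (-1.36 to -0.79). Skap1 had -0.67 (-0.81 to -0.52) and -0.78 (-0.99 to -0.56), and Thy1 -0.69 (-0.82 to -0.56) and -0.69 (-0.87 to -0.52). Nfatc2 had -0.80 (-1.50 to -0.05) and -1.85 (-3.05 to -0.78), from 10 UMIs in the smaller of the anti-TIGIT groups. Nfatc1 and Nfatc2, 2 factors of 1 family, thus lay on opposite sides. Lck, Themis, Ptpn22 and Cd247 stayed within 1.5-fold in both libraries. Among the CD3 chains, Cd3g had 0.91 (0.77 to 1.04) and 0.47 (0.28 to 0.66), Cd3e 0.66 and 0.32, and Cd3d 0.23 and 0.10. The subsets also differed in cycling markers, which summed to 209 and 460 CPM in the Pdcd1 and Tox subset and to 89.8 and 98.0 CPM in the Gzmk subset, and their part was not tested. With at least 4 receptor UMIs, Grap2 and Skap1 alone of the lower members kept their call in both libraries.

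**Figure D4:**
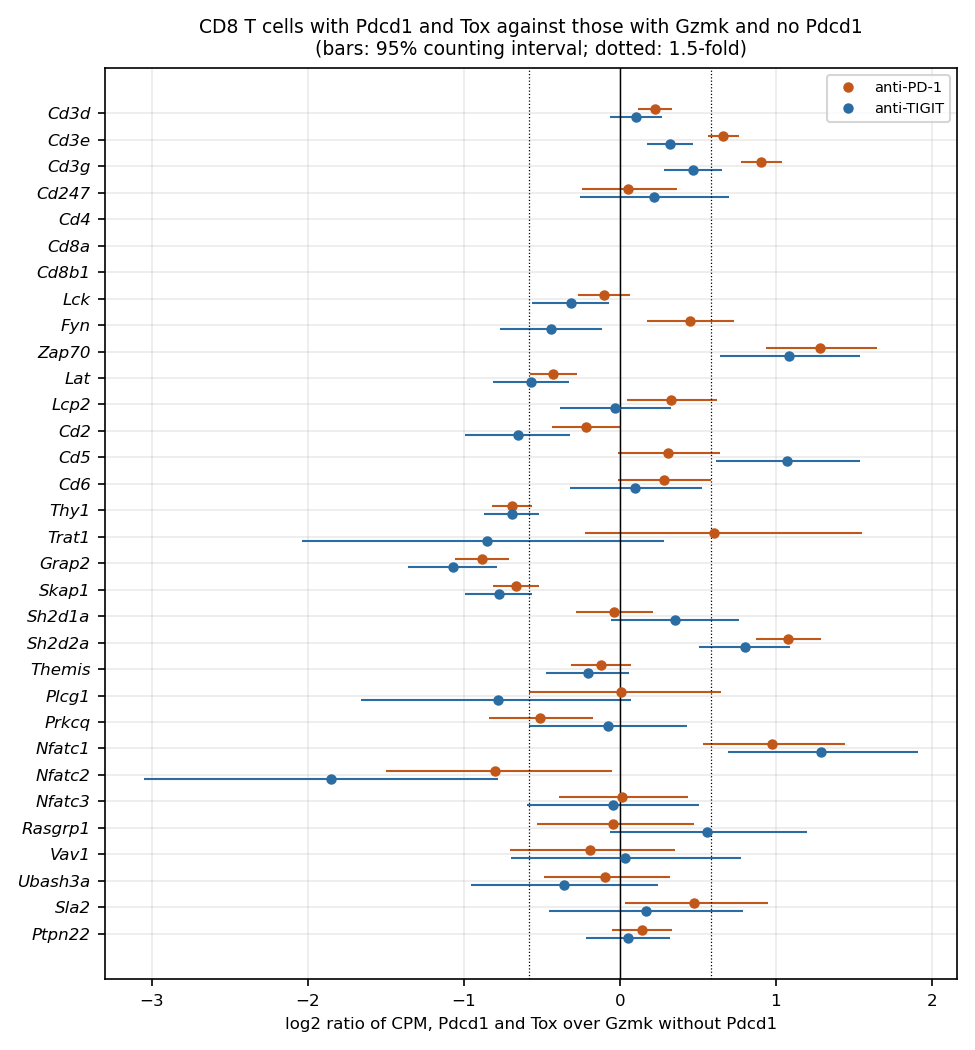
Log2 ratio of CPM, CD8 T cells with Pdcd1 and Tox over those with Gzmk and no Pdcd1, within the anti-PD-1 (orange) and anti-TIGIT (blue) libraries, with 95% counting intervals as bars and dotted lines at 1.5-fold; the co-receptors, which gate CD8 T cells, are left out. Zap70, Sh2d2a and Nfatc1 lie to the right and Thy1, Grap2, Skap1 and Nfatc2 to the left in both libraries.

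NK cells lack a T cell receptor yet carry part of its signalling chain. They numbered 72 and 86, gated on Ncr1 or Klrb1c with under 2 receptor UMIs. Against αβ T cells 18 of 32 members were lower in both libraries and none was higher in both, where 11% of 11198 genes were lower in both and 4.82% higher in both. Cd5 was at 6.42 and 0 CPM, Cd6 at 3.21 and 0 CPM and Themis at 12.8 and 8.30 CPM. The scaffold Lat was at 61.0 and 70.5 CPM in NK cells and at 553 and 554 CPM in αβ T cells. Skap1 at 482 and 651 CPM, Fyn at 222 and 207 CPM, Prkcq at 103 and 104 CPM and Nfatc3 at 96.4 and 95.4 CPM were within 1.5-fold of αβ T cells in both libraries. Lck was at 273 and 278 CPM against 477 and 470 CPM. Sla2 was higher in NK cells of the anti-TIGIT library, at 145 against 63.3 CPM, and within 1.5-fold in the other.

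CD3 chain UMIs were not absent from NK cells. Cd3e was at 183 CPM in the anti-PD-1 and 87.1 CPM in the anti-TIGIT NK cells, from 57 and 21 UMIs. After thinning, no CD3 chain, Cd247 included, was seen in 76.1% of 71 and 77.6% of 85 NK cells. Cd247 was seen in 12.7% and 15.3% of them, Cd3d in 14.1% and 4.71%, Cd3e in 9.86% and 7.06% and Cd3g in 11.3% and 4.71%. Of these cells, 3 and 3 held 3 of the chains, and 2 and 0 held all 4. In NK cells the 6 myeloid markers summed to 546 and 74.7 CPM, with 6 of 6 higher in anti-PD-1, and the 5 NK markers to 2627 and 4973 CPM, and the part of these cells in the CD3 level was not tested. Group 2 innate lymphoid cells, gated on Gata3, Il1rl1 and Il7r, numbered 51 and 38. Against αβ T cells they had 21 members lower and none higher in both libraries, where 17.7% of 11178 genes were lower in both and 5.35% higher in both. Lcp2 at 284 and 295 CPM, Grap2 at 324 and 286 CPM and Skap1 at 623 and 829 CPM were within 1.5-fold of αβ T cells.

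Against other cells, with NK and innate lymphoid cells left out, the members fell into genes low outside T cells and genes of wider use. In 8 reference classes with at least 50 cells in both libraries, taken with under 2 receptor UMIs, 21 members stayed below 25% of their highest T cell type everywhere and 11 did not. The 21 were the CD3 chains, the co-receptors, Lck, Zap70, Lat, Cd5, Cd6, Thy1, Trat1, Grap2, Skap1, Sh2d1a, Sh2d2a, Themis, Ubash3a and Sla2. This split was made on the levels themselves and is a description. It does not cover NK and innate lymphoid cells, where Skap1, counted among the 21, was within 1.5-fold of αβ T cells. Grap2, counted among the 21, was also carried by dendritic cells, at 71.5 and 65.7 CPM, up to 21.8% of its highest T cell type, and was seen in 7.69% and 6.18% of thinned dendritic cells.

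The 21 summed to 9697 and 8466 CPM in αβ T cells. In oligodendrocytes, which do not carry a T cell receptor, they summed to 105 CPM (101 to 110) with anti-PD-1 and 24.7 CPM (22.2 to 27.5) with anti-TIGIT, or 1.08% and 0.292% of the αβ T cell level. Microglia had 38.2 and 28.8 CPM, border macrophages 179 and 42.3 CPM, and oligodendrocyte precursors (OPCs) 62.2 and 135 CPM. Dendritic cells had 178 and 95.8 CPM, with Grap2 in the sum, plasma cells 210 and 98.3 CPM, B cells 116 and 235 CPM and fibroblasts 68.3 and 17.9 CPM. The highest of these, in anti-TIGIT B cells, was 2.78% of the αβ T cell level. The anti-PD-1 value was the higher in oligodendrocytes, border macrophages, dendritic cells, plasma cells and fibroblasts and the anti-TIGIT value in OPCs and B cells, while the intervals overlapped in microglia. These levels are small beside those of T cells, and Cd3e held 283 and 37 UMIs over all oligodendrocytes taken. With no limit on receptor UMIs, the oligodendrocyte sums were 221 and 39.3 CPM.

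The other 11 members had levels of their own in cells without a receptor. Vav1, an exchange factor used widely in blood cells, was at 141 and 170 CPM in microglia, above every T cell type, at 248% and 284% of the highest. Nfatc2 was at 119 and 116 CPM in OPCs, 304% and 211% of the highest T cell type, and at 65.9 and 75.2 CPM in border macrophages. Lcp2 reached 57.3% and 52.7% in microglia and 42.8% and 44.1% in border macrophages. Fyn was at 134 and 170 CPM in OPCs and at 118 and 125 CPM in dendritic cells. Prkcq was at 69.6 and 98.4 CPM in OPCs and at 50.5 and 52.7 CPM in oligodendrocytes. Plcg1, the phospholipase that yields the calcium signal, was at 17.9 and 20.2 CPM in oligodendrocytes. B cells carried Nfatc3 at 92.5 and 138 CPM, Nfatc1 at 71.7 and 157 CPM, Rasgrp1 at 43.7 and 78.4 CPM and Ptpn22 at 133 and 180 CPM. They also carried Cd2, at 146 and 175 CPM. It passed 25% of its highest T cell type in the anti-TIGIT library and was at 22.5% in the anti-PD-1 library. Nfatc2, the member called lower in anti-PD-1 CD8 T cells, was thus not a gene of T cells alone in these nerves.

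**Figure D5:**
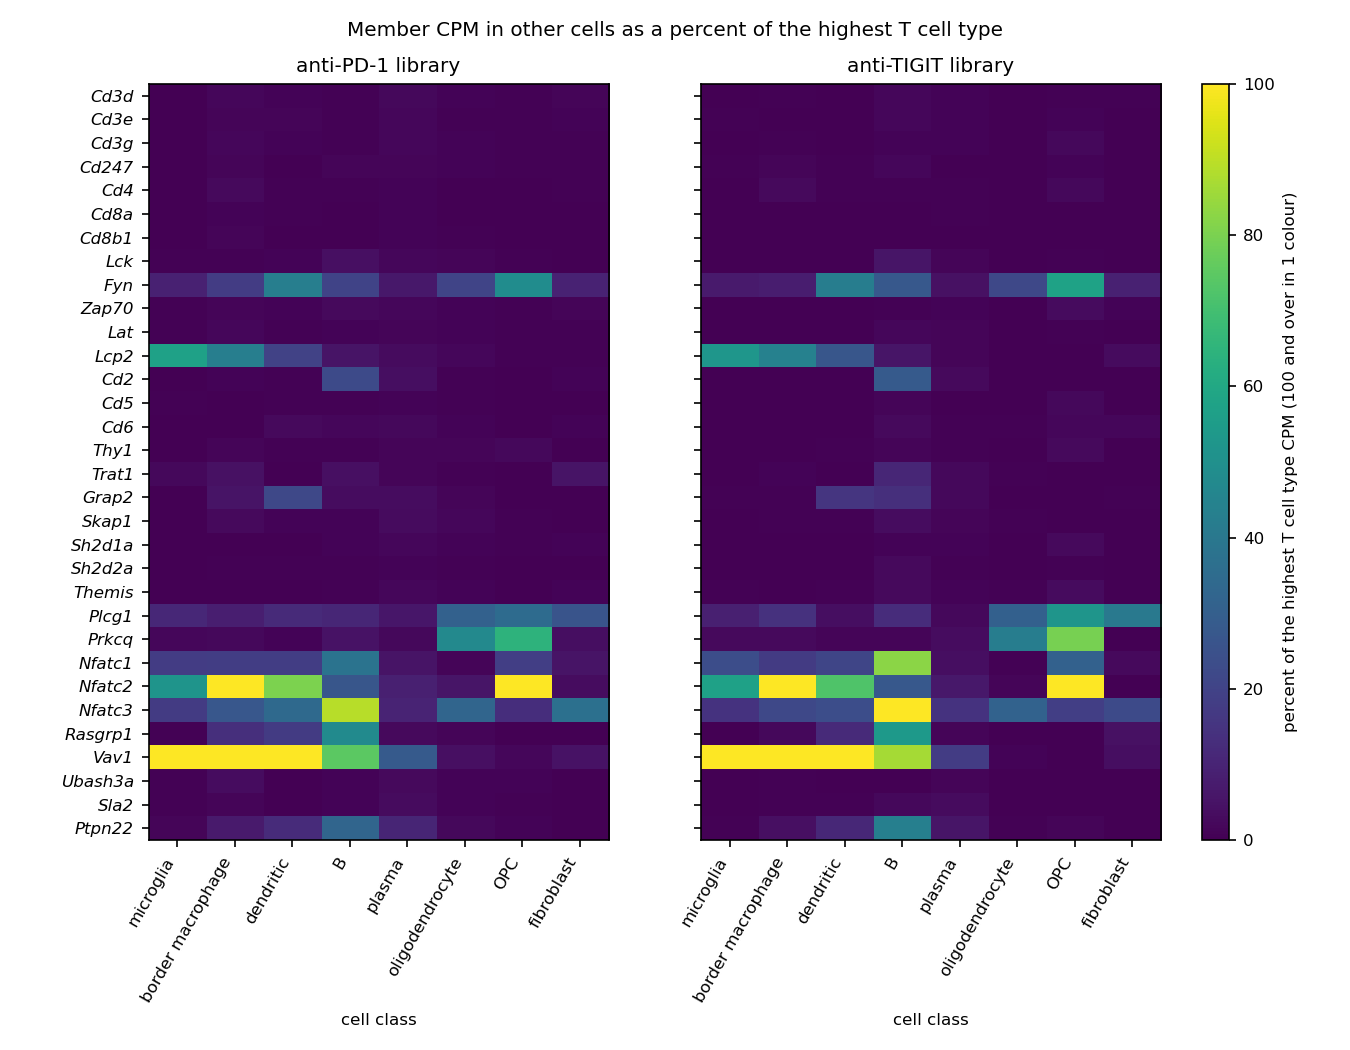
CPM of each member in 8 classes of other cells as a percent of its highest T cell type, in the anti-PD-1 (left) and anti-TIGIT (right) libraries; colour runs from 0 to 100 percent and higher values share the top colour. Rows of the CD3 chains and co-receptors are dark throughout, and Vav1, Nfatc2, Nfatc3, Fyn, Lcp2, Prkcq and Plcg1 are bright in some classes.

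Other genes of the pathway, in lists of kinases and adaptors (17), calcium and calcineurin (12), the NF-κB arm (9), the Ras arm (10), inhibitors (18) and receptor-induced targets (12), were mostly within 1.5-fold in CD8 T cells. None of the calcium, NF-κB or Ras genes was called. Of the inhibitors 2 were higher and 1 lower, of the targets 1 higher and 1 lower, and of the kinases and adaptors 1 lower, where 6.44% of all genes were higher and 4.04% lower. Tnfrsf9, a costimulatory receptor induced by T cell activation, was at 567 and 282 CPM, a log2 ratio of 1.01 (0.87 to 1.15). Cd69, an early activation marker, was at 159 and 260 CPM, a log2 ratio of -0.71 (-0.88 to -0.54). Neither was called in the Pdcd1 and Tox or the Gzmk subset. Tnfrsf9 was at 709 and 672 CPM in the first, a log2 ratio of 0.08 (-0.07 to 0.23), at 41.9 and 30.7 CPM in the second, 0.45 (-0.49 to 1.43), and at 269 and 73.3 CPM in the remaining CD8 T cells, 1.87 (1.38 to 2.40). Cd69 had -0.51 (-0.79 to -0.23), -0.41 (-0.76 to -0.06) and -0.69 (-1.01 to -0.37) in the same order. Of 11 targets with enough UMIs in the remaining cells, 6 were called lower, Nr4a1, Egr1, Egr2, Irf4, Cd69 and Nfkbid. Tnfrsf9 and Myc were called higher there, where 12.9% of genes were lower and 9.37% higher. The targets' median there was -0.68 against -0.06 over all genes. Egr2 and Irf4 were called lower in the Pdcd1 and Tox subset, with 7.87% of genes, and Nr4a3 in the Gzmk subset, with 13%. Pag1, a membrane adaptor that holds the inhibitory kinase Csk and stands in 2 of the lists, was at 45.8 and 83.9 CPM, a log2 ratio of -0.87 (-1.17 to -0.57). The inhibitory adaptor Dok1 was at 31.2 and 16.5 CPM, and the ubiquitin ligase gene Rnf128 at 5.92 and 0.591 CPM, from 34 and 1 UMIs, a log2 ratio of 3.33 (0.75 to 8.67). The list medians ran from -0.26 for kinases and adaptors to 0.06 for the NF-κB arm, against 0.01 over all genes.

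In conventional CD4 T cells the induced targets had 1 gene higher and 3 lower, with a median of -0.43 against 0.06 over all genes, of which 10.3% were higher and 6.46% lower. Tnfrsf9 was again higher, at 201 and 82.7 CPM, a log2 ratio of 1.28 (0.89 to 1.69), and Cd69 lower, at 218 and 360 CPM, -0.73 (-0.96 to -0.49). Il2, the T cell growth factor, was at 5.21 and 24.2 CPM, from 8 and 19 UMIs, and Irf4 at 51.4 and 80.2 CPM. Of the inhibitors 3 were higher, Ubash3b at 56.0 and 24.2 CPM, Dok1 at 39.7 and 17.8 CPM and Rnf128 at 24.7 and 8.91 CPM, and Rasa2 was lower, at 45.6 and 73.8 CPM. Grb2, an adaptor that leads to Ras, was higher, at 202 and 131 CPM, and no calcium gene was called.

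In regulatory T cells 16 genes of these lists were called higher and 3 lower, most on fewer than 10 anti-TIGIT UMIs, where 18.6% of all genes were higher and 13.4% lower. Tnfrsf9 was at 795 and 379 CPM, a log2 ratio of 1.07 (0.73 to 1.43), so it was higher in the anti-PD-1 library in all 3 T cell types. In the NF-κB arm Nfkb2, at 73.1 and 19.9 CPM, and Rel, at 227 and 149 CPM, were higher. Pik3r1, the regulatory subunit of PI3-kinase, was at 130 and 54.8 CPM, and Myc at 135 and 59.8 CPM. The intervals of Nfkb2, Rel, Pik3r1 and Myc lay above 0. Also higher were Dok1 at 41.0 and 9.96 CPM, Itch at 71.3 and 34.9 CPM, Map2k1 at 66.9 and 29.9 CPM, Mapk3 at 46.4 and 24.9 CPM, Stim2 at 51.7 and 24.9 CPM, Ppp3r1 at 43.7 and 24.9 CPM and Skap2 at 58.8 and 34.9 CPM. Lower were Rasa2 at 48.1 and 94.6 CPM, Dgkz at 65.1 and 105 CPM and Egr2 at 18.7 and 39.9 CPM. Of these 10 genes, Dok1 and Rasa2 had intervals clear of 0.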

How the data were processed

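The deposited values are whole UMI counts per gene and barcode, made by the authors with Cell Ranger 8.0.0 (anti-PD-1) and 8.0.1 (anti-TIGIT) per the file headers. The submitters' processing notes list mm10, Seurat 5.0.3 and R 4.1.1, and no Seurat output was used. Barcodes needed 200 genes and could hold 10% mitochondrial UMIs at most, which left out 39 and 89 barcodes and then 107 and 176. Scrublet in scanpy 1.11.5 (0.8% expected per 1000 cells) removed 576 and 155 doublets.

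Classes were gated on UMIs as the report states. T, NK and innate lymphoid cells had to stay under a limit on the percent of UMIs in other lineages' markers, which left out 12.0% and 5.94% of cells with 2 receptor UMIs. Reference cells had to pass exactly 1 limit, the myeloid one not counted. Microglia and border macrophages had to pass the myeloid limit as well, dendritic cells were free to, and the other classes had to stay under it. The limits, set after seeing the distributions, were 0.5 for myeloid cells and microglia, 0.15 for border macrophages, dendritic cells, B cells, astrocytes and fibroblasts, 0.2 for OPCs, 1 for plasma cells and 2 for oligodendrocytes.

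Counts were summed per class and library as CPM, with exact Poisson intervals. Log2 ratios have exact conditional binomial intervals, and shares have exact Clopper-Pearson intervals. The calculation was tested on simulated Poisson counts, the same counting model that the intervals assume. These counts held no spread between cells, mice or libraries, so the test checks the calculation only. The members and lists were chosen with earlier results of these data known. Values are given for members past 1.5-fold with at least 20 UMIs in a T cell type and always for the CD3 chains, co-receptors, Lck, Fyn, Zap70, Lat and Lcp2, and for list genes past 1.5-fold, at most the 4 largest per list and direction. Some list genes that this rule names are not reported here. Other members with values (Thy1, Cd5, Cd6, Sh2d1a and the like) were chosen after their values were seen. Positions are from GENCODE, whose gene identifiers matched for all 32 members. Astrocytes (33 and 21) were not used. Software was Python 3.11.15, numpy 2.4.6, scipy 1.17.1, pandas 2.3.3 and matplotlib 3.10.9. Alternatives are given in the closing section.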

Additional observations from a re-analysis of the deposited data

Results flagged for a closer look

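Sh2d2a differed between the treatments in opposite directions in 2 T cell types. Its log2 ratio, anti-PD-1 over anti-TIGIT, was 0.76 in CD8 T cells and -0.37 in conventional CD4 T cells, with both intervals clear of 0.

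For 3 other members a difference between cell types went opposite ways in the 2 libraries. Trat1, CD8 over conventional CD4 T cells, had log2 ratios of 0.64 in the anti-PD-1 and -0.83 in the anti-TIGIT library, and Skap1 had -0.12 and 0.18. Fyn, CD8 T cells with Pdcd1 and Tox over those with Gzmk and no Pdcd1, had 0.45 and -0.44. None of these differences between differences was tested, since each group is 1 library.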

How the results depend on the processing

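Counts of called members are small and move with single genes near 1.5-fold. Given are the counts that differed by more than 1.5 times from the main ones. Members lower in CD8 T cells between the treatments numbered 0 in place of 1 with T cells gated by Cd3d, Cd3e and Cd3g, at least 4 receptor UMIs, no doublet removal, a pseudocount of 20 CPM or 2-fold; 2 with doubled lineage limits or in cells with Y-linked transcripts; and 3 with thinning to 1000 UMIs or in the Gzmk subset alone. Members higher there numbered 0 in place of 2 past 2-fold and in either subset alone. In Xist-positive cells, 354 and 43, they were 7 higher and 3 lower.

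In conventional CD4 T cells members higher numbered 0 in place of 1 with at least 4 receptor UMIs, doubled limits or 2-fold; with thinning they were 4 higher and 3 lower, in Xist-positive cells (69 and 11) 4 higher and 7 lower, and 3 lower in cells with Y-linked transcripts. In regulatory T cells members higher numbered, in place of 0, 2 with at least 4 receptor UMIs, 3 with thinning, 1 with a pseudocount of 1 CPM and 4 in cells with Y-linked transcripts; members lower numbered 1 in place of 3 with a pseudocount of 20 CPM, past 2-fold and in cells with Y-linked transcripts.

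Called values reversed in 2 cases: Nfatc2 in CD8 T cells was at 0.24 in the Pdcd1 and Tox subset, and Rasgrp1 in regulatory T cells at 0.28 in cells with Y-linked transcripts. The regulatory T cells held no Xist-positive anti-TIGIT cell and so gave no value there, nor did the subset comparison, with 7 cells in its smallest group.

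The type comparisons were rerun under settings chosen after seeing the data. CD8 over conventional CD4 T cells had 1 member higher in place of 2 (Sla2) with thinning, in Xist-positive cells and past 2-fold, and 1 lower in place of 3 (Cd247) past 2-fold. Regulatory over conventional CD4 T cells had 0 higher in place of 1 with the CD3 gate, median scaling, a pseudocount of 20 CPM or 2-fold, and 2 (Cd2 and Sla2) with at least 4 receptor UMIs, doubled limits, a pseudocount of 1 CPM or in cells with Y-linked transcripts; 8 were lower in place of 5 with the CD3 gate, 3 with a pseudocount of 20 CPM or in cells with Y-linked transcripts, and 1 (Themis) past 2-fold. The CD8 subsets had 2 lower in place of 4 with at least 4 receptor UMIs, and 1 higher (Zap70) and 0 lower past 2-fold. NK cells had 1 member higher (Sla2) with thinning and in Xist-positive cells.

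With no limit on receptor UMIs the 21 T cell members summed to 221 and 39.3 CPM in oligodendrocytes, 63.9 and 56.2 in microglia, 364 and 57.9 in border macrophages and, in the anti-PD-1 library, 90.4 in OPCs, by construction of that setting. In the other cases the cause was not tested.

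Of the single-member values under these settings, 299, 237 and 271 in CD8, conventional CD4 and regulatory T cells stayed within the main interval, and 60, 33 and 8 left it without turning a call. The pseudocount, the minimum of UMIs and the fold do not enter these ratios. Values under those settings therefore stayed by construction and are counted among those that stayed. With 48 anti-TIGIT regulatory T cells, 28 of 30 member intervals there held 0. No paired analysis was possible because each group is 1 library.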
